A study of Mus musculus with 8 samples.

Results

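The response to hypoxia was followed in embryonic fibroblasts lacking Hif-p4h-1, by comparing the 2 knockout arrays labelled hypoxia with the 2 knockout arrays labelled normoxia. These were 4 of the 8 arrays of the series, and the comparison covered 13647 tested genes of 18193 named genes. All cells were fibroblasts isolated from embryos of the C57BL6/J strain at stage E14.5. The 4 groups were wild type (Hif-p4h-1+/+) in normoxia, wild type in hypoxia, knockout (Hif-p4h-1-/-) in normoxia and knockout in hypoxia, each with 1 array in a first set and 1 in a set titled 2nd. No source used here gives the oxygen level, the length of exposure, the allele or the passage of the cells. Values are log2 expression values of probe sets, and pairs of values below are given in the order first set, second set. A difference of 1 on this scale is a 2-fold change.

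Hif-p4h-1, also called PHD1, is the product of Egln2. It is one of the prolyl hydroxylases that use oxygen to tag hypoxia-inducible factor (HIF) alpha subunits for recognition by the von Hippel-Lindau protein and for destruction. When oxygen falls, alpha subunits accumulate, pair with ARNT and bind short core motifs at target genes, which include genes of glucose uptake, glycolysis, mitophagy, collagen modification and blood vessel growth. The other prolyl hydroxylase genes, Egln1 and Egln3, are themselves HIF targets, which gives the pathway a feedback loop.

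Egln2, the targeted gene, read 8.0 and 8.34 in the normoxic knockout arrays and 8.66 and 8.85 in the hypoxic ones. In wild type it read 8.84 and 9.07 in normoxia and 8.95 and 9.13 in hypoxia. The normoxic knockout arrays were lower than all other arrays, and within each set the knockout was below the wild type in both oxygen conditions. Some signal was thus left in the knockout. Where its single probe set lies relative to the deletion is stated in no source used here, which makes this a partial check of the labels. With hypoxia Egln2 rose in the knockout by 0.59 ± 0.089 (limma adjusted p = 0.00919, standard error, n = 2 per group, as for all changes below), against 0.09 in wild type. None of the 4 fits without 1 knockout array kept this call, with changes of 0.52 to 0.66 and adjusted p from 0.0554 to 0.098. The interaction, which is the test of the difference between both responses, did not pass (adjusted p = 1).

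Fibroblast genes were present at high level in the knockout arrays of both oxygen conditions. The median log2 level of 14 fibroblast markers, Col1a1, Pdgfrb, Thy1 and Vim among them, lay between 11.8 and 12.0 in the 4 knockout arrays, and 0 of the 14 changed with hypoxia. All 14 lay above the level below which genes were left out of testing (log2 4.17). No knockout array stood apart from the others beyond the difference of the sets. Pearson's r between arrays across genes was 0.981 for the normoxic pair and 0.982 for the hypoxic pair, below the 0.990 between hypoxia and normoxia of either set. The set was therefore a term of the fit.

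Hypoxia raised a core of HIF targets strongly and moved many other genes slightly. Of 13647 tested genes, 680 were higher (4.98%) and 700 lower (5.13%), together 10.1%, and all of these moved the same way in both sets. The median change was 0.55 for the genes that rose and -0.49 for those that fell, against 0.02 for all tested genes. At least 2-fold changes were mostly rises, with 83 genes up (0.608%) and 24 down (0.176%). Both hypoxic knockout arrays lay above both normoxic ones for 2471 of all tested genes (18.1%) and below them for 2167 (15.9%). In bulk RNA such as this, fewer cells of a type and less RNA per cell cannot be told apart. Values normalized as these were cannot show a shift of all transcripts together.

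How firmly a gene was called depended on single arrays. In fits that left out 1 of the 8 arrays, 80 of the 1380 genes kept their call every time (63 higher, 17 lower), and 870 were called in none of the 4 fits without a knockout array. All 1380 kept their direction in all 8 fits. Among the at least 2-fold changes, 41 of 83 rises and 7 of 24 falls were called in all 8. A gene of the first kind is said below to have held. The others have not held, and the arrays without which the call was lost, or the range of changes over the 8 fits, are given with most of them. Without the set in the fit, 12 genes passed, all of them rises: Ankrd37, Bnip3, Car9, Fam162a, Higd1a, Ldha, Mgarp, Pdk1, Prelid2, Slc16a3, Slc2a1 and Stc1. The labels do not state whether both arrays of a group stem from different cultures or embryos. The p-values therefore reflect only how far these arrays differ, and that spread may be technical.

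**Figure D1:**
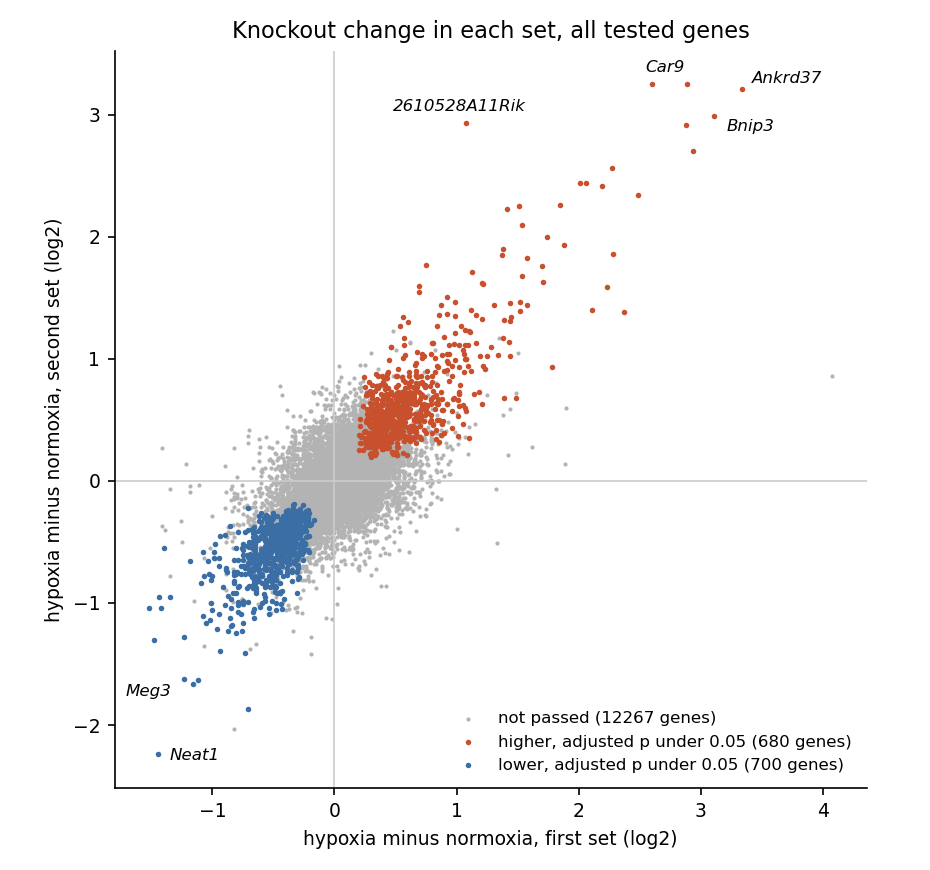
Each point is a tested gene. The horizontal axis gives the log2 change from normoxia to hypoxia in the knockout within the first set, the vertical axis the same within the second set. The 680 genes that rose and the 700 that fell lie in the quadrants of equal sign, while 2610528A11Rik is far from the diagonal, with 1.08 and 2.93 in the 2 sets.

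Promoters are shown for the 5 genes of largest rise, since HIF binds short motifs. Whether HIF caused these rises was not tested. The windows run from 250 bases before to 50 after the annotated start, written 5′ to 3′ on the strand of the gene, from RefSeq on build GRCm38.p6. They are chr8:45999801-46000100 on the minus strand for Ankrd37, chr12:54203825-54204124 on the minus strand for Egln3, chr7:138909457-138909756 on the minus strand for Bnip3, chr4:43506776-43507075 on the plus strand for Car9 and chr2:71872974-71873273 on the plus strand for Pdk1. Pdk1 has 2 entries, of which the more upstream is shown. Capitals mark the HIF core motifs ACGTG and GCGTG, or their reverse complements CACGT and CACGC on the other strand. ACGTG is also part of the E-box CACGTG.
Ankrd37: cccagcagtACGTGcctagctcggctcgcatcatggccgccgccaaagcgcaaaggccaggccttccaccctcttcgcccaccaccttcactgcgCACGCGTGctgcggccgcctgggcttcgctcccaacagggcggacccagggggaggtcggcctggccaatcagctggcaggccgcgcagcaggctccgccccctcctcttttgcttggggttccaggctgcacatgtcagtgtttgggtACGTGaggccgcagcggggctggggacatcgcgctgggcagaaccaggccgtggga
Egln3: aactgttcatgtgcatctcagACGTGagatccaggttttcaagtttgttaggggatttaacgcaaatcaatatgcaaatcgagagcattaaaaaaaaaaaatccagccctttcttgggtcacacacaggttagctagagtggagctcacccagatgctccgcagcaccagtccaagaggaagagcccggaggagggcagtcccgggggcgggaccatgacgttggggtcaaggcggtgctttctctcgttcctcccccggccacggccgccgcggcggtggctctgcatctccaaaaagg
Bnip3: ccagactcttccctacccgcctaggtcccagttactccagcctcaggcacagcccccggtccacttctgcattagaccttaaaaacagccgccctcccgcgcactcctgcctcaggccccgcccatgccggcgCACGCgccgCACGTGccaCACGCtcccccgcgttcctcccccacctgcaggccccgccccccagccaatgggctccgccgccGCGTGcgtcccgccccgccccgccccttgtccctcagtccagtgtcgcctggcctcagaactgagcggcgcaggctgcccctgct
Car9: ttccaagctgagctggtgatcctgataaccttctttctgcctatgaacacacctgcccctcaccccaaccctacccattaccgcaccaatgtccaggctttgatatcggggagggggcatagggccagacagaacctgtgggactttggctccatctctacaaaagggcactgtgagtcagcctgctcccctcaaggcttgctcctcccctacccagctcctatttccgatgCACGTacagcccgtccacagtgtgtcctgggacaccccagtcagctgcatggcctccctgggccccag
Pdk1: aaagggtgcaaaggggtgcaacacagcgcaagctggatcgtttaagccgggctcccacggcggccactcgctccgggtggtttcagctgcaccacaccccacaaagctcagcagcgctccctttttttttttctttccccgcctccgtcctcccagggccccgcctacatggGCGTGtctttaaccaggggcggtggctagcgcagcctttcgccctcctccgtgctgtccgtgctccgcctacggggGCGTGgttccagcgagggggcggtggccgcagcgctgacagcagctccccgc

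Each of these 5 windows held at least 1 motif. Bnip3 had 5 matches, 3 of them GCGTG, with 4 starting between positions -117 and -99 relative to the start site. Ankrd37 had 4, Pdk1 had 2, both GCGTG, and Egln3 and Car9 had 1 ACGTG each, at positions -229 and -18. Overlapping matches are counted separately. The Bnip3 matches at -108 and -107 are the same CACGTG read on both strands. Those of Ankrd37 at -155 and -152 overlap in CACGCGTG. Such matches are common. Of 87 promoter entries of genes that rose at least 2-fold (64 of 83 genes had an entry), 72.4% held a motif and 46.0% held ACGTG. Of 734 entries of all genes that rose, 66.5% held a motif and 31.5% ACGTG. Among 752 entries of genes that fell the shares were 67.3% and 25.1%, and among 12483 entries of tested genes that did not pass they were 58.6% and 24.0%. All 32851 entries of the table gave 43.8% and 19.6%. A match is a run of letters in this window and no measure of binding.

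**Figure D2:**
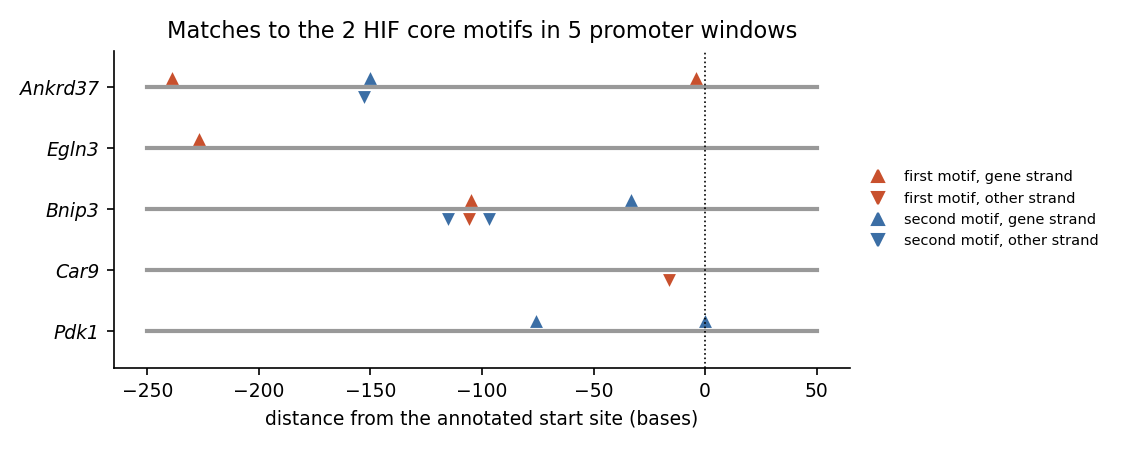
Each line is the window of 1 gene, with distance from the annotated start site in bases on the horizontal axis. Triangles mark the 13 matches, where the first motif is ACGTG and the second GCGTG. They point up on the strand of the gene and down on the other strand. Overlapping matches are drawn separately, and Bnip3 holds 5 and Car9 and Egln3 hold 1 each.

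Of the HIF pathway itself, the prolyl hydroxylase genes Egln1 and Egln3 rose and held. Egln1, the main oxygen-sensing hydroxylase, read 9.51 and 9.85 in normoxia and 10.58 and 11.09 in hypoxia, a rise of 1.16 ± 0.099 (limma adjusted p = 0.0011). Egln3, another HIF prolyl hydroxylase, went from 7.23 and 7.15 to 10.12 and 10.4, by 3.07 ± 0.28 (limma adjusted p = 0.00154). For both genes the hypoxic arrays lay above the normoxic arrays, as they did for 18.1% of all tested genes. The calls held, and a second probe set gave 1.91 and 2.72. Vhl, the substrate receptor of the ubiquitin ligase, and Hif1an, the asparaginyl hydroxylase of HIF, differed by 0.01 and 0.0 and did not pass. Epas1, which encodes HIF-2 alpha, read 8.17 and 8.77 in normoxia and 7.53 and 7.43 in hypoxia, and its change of -0.99 ± 0.26 missed the threshold (limma adjusted p = 0.0515). Without hypoxia replicate 1 it was called, at -1.40. Hif1a (-0.12), Hif3a (0.22), Arnt (-0.30) and Arnt2 (-0.42) did not pass either. Of the 11 genes of hydroxylases, Vhl and subunits, 3 rose and 0 fell.

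Genes that act back on the pathway or carry its signal on were higher. Of 12 such regulators, 9 rose, 0 fell and 3 did not pass, with a median of 0.73 against 0.02 over all tested genes. Without 1 knockout array 4 to 7 of them rose. Ankrd37, an ankyrin repeat protein gene and HIF target, read 5.9 and 6.07 in normoxia and 9.24 and 9.28 in hypoxia. Its rise of 3.28 ± 0.14 (limma adjusted p = 2.72e-05) was the largest of all. Ero1a, an oxidase of disulfide bond formation in the endoplasmic reticulum, rose by 0.89, Ddit4, an inhibitor of mTORC1 signalling, by 0.75 and Rora, a nuclear receptor, by 1.05, and these calls held. Mxi1, an antagonist of MYC, rose by 1.26 but was not called without normoxia replicate 1 (1.24), normoxia replicate 2 (1.28) or hypoxia replicate 2 (1.05). Ndrg1 rose by 1.02 and was not called without normoxia replicate 1 (0.78) or hypoxia replicate 2 (0.88). Bhlhe40, Ier3 and Cited2 rose by 0.72, 0.49 and 0.39 and did not hold, with 0.32 as the lowest change of the 3 without 1 array. Nfil3, Ets1 and Vhl did not pass.

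**Figure D3:**
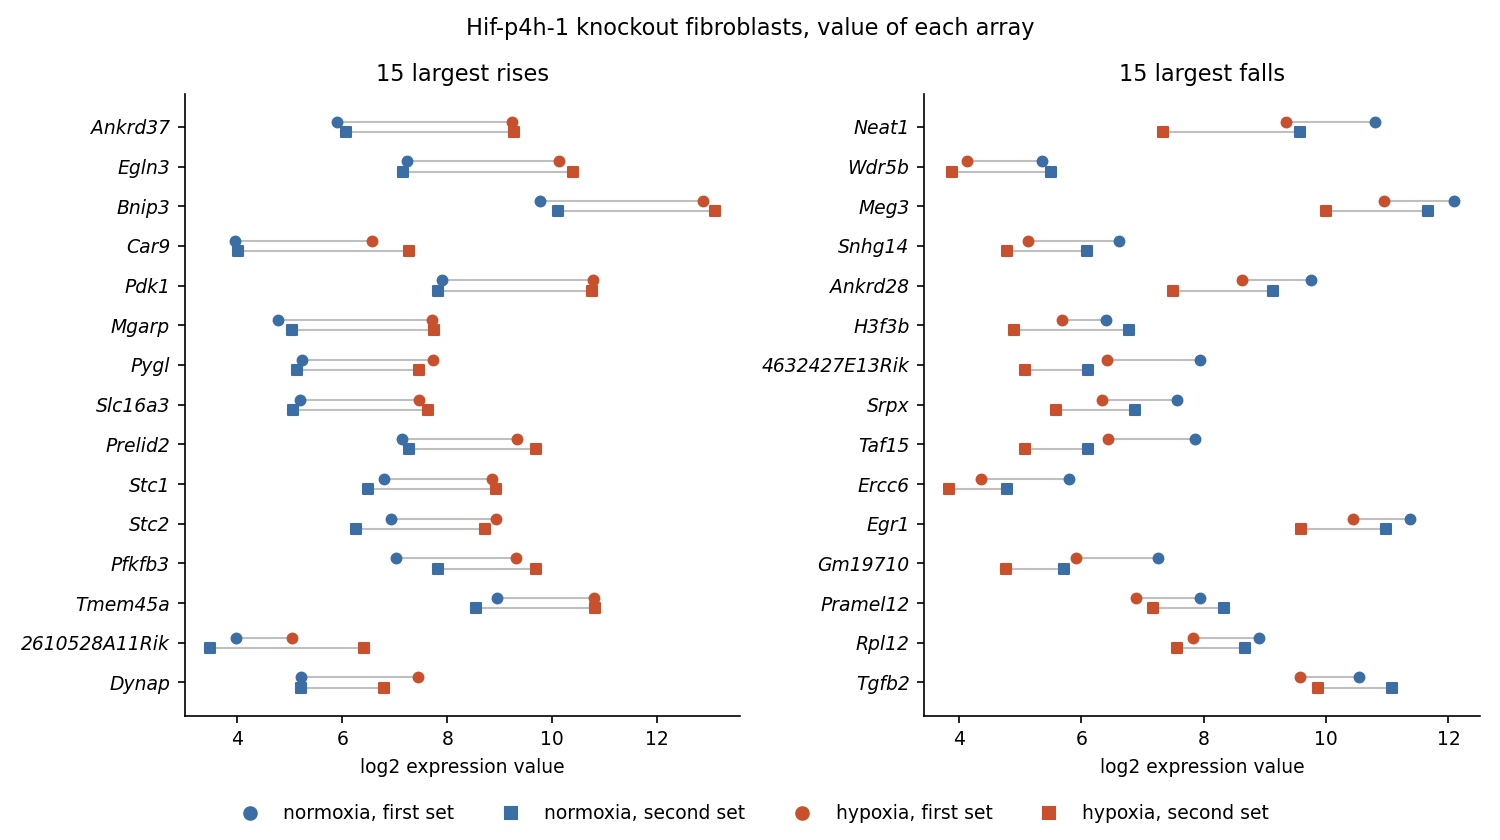
Log2 value (horizontal axis) of each knockout array for the 15 largest rises and the 15 largest falls, with normoxia in blue, hypoxia in orange, circles for the first set and squares for the second, and a grey line joining the arrays of 1 set. Both hypoxic arrays lie above both normoxic arrays for all 15 rises, which were picked for their size, and for 18.1% of all tested genes. For 4632427E13Rik, Taf15 and Gm19710 among the falls the conditions overlap between sets.

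Genes of glucose uptake and glycolysis rose along most of the list. Of 20 tested genes, 15 rose, 0 fell and 5 did not pass, with a median of 0.89 (0.87 and 0.88 in the 2 sets), and leaving out 1 knockout array gave 12 to 14 rises. Slc2a1, the main glucose transporter of most cultured cells, read 11.53 and 11.65 in normoxia and 13.05 and 13.12 in hypoxia, a rise of 1.495 ± 0.065 (limma adjusted p = 2.72e-05). Slc16a3, a lactate exporter, went from 5.2 and 5.07 to 7.47 and 7.63, by 2.42 ± 0.19 (limma adjusted p = 5.99e-04). Ldha, which reduces pyruvate to lactate, went from 12.81 and 12.88 to 13.75 and 13.7, by 0.88 ± 0.055 (limma adjusted p = 1.68e-04). The conditions did not overlap in any of the 3, with hypoxia above normoxia as for 18.1% of all tested genes. Slc16a1, another monocarboxylate carrier, was at 10.53 and 9.82 in normoxia and 10.83 and 9.82 in hypoxia and did not pass.

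Along the pathway the rises lay in its upper and lower part, but not in every isoform. Of 10 genes of the upper part 7 rose and of 6 of the lower part 5 rose. Pfkl, the liver-type phosphofructokinase, rose by 1.87 ± 0.10 (limma adjusted p = 1.03e-04), whereas the muscle-type Pfkm stood at 0.13 and did not pass. Of the enzymes that set the level of fructose 2,6-bisphosphate, an activator of phosphofructokinase, Pfkfb3 went from 7.02 and 7.83 to 9.3 and 9.69, by 2.07, while Pfkfb2 (-0.12) and Pfkfb4 (0.03) did not pass. A second probe set of Pfkfb3 gave 0.29 and did not pass. Hk1 (1.17), Pfkp (0.90), Aldoa (1.01), Tpi1 (1.38), Pgk1 (0.66), Pgam1 (0.72) and Pkm (1.17) rose and held. Hk2 (0.74) was not called without normoxia replicate 1 (0.72) or 2 (0.75), and neither Aldoc (0.79, down to 0.66) nor the neuronal-type transporter Slc2a3 (1.06, down to 0.79) held. Eno2, the neuron-type enolase, stood at 0.29 and did not pass.

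Several genes of glycogen turnover rose as well. Of 15 tested genes, 6 rose, 1 fell and 8 did not pass, with a median of 0.05, close to that of all genes, and 2 to 3 rose without 1 knockout array. Pygl, the liver-type glycogen phosphorylase, read 5.23 and 5.13 in normoxia and 7.72 and 7.47 in hypoxia, a rise of 2.42 ± 0.29 (limma adjusted p = 0.00387). It was not called without normoxia replicate 2, at 2.18. The other 5 rises belong to synthesis. Pgm1, phosphoglucomutase, rose by 1.73 ± 0.082 (limma adjusted p = 4.27e-05) and Gys1, glycogen synthase, by 0.92, and both held. Gbe1, the branching enzyme, rose by 0.77, and the protein phosphatase subunits Ppp1r3c and Ppp1r3b, which target glycogen synthase, by 1.19 and 0.74. These 3 were called in none of the fits without a knockout array, with changes of 0.64 to 0.90, 0.89 to 1.495 and 0.64 to 0.83. Gyg, the primer protein of glycogen, fell by 0.46 and did not hold (up to -0.32).

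Genes that turn pyruvate away from mitochondria, or act in mitophagy, included the rises of smallest p. Pdk1, a kinase that inhibits pyruvate dehydrogenase, read 7.9 and 7.83 in normoxia and 10.78 and 10.75 in hypoxia, by 2.90 ± 0.098 (limma adjusted p = 5.66e-06), and its 3 other probe sets gave 0.70, 2.63 and 3.15, all passed. Bnip3, a mitophagy receptor, went from 9.76 and 10.11 to 12.87 and 13.1, by 3.05 ± 0.085 (limma adjusted p = 3.25e-06). For both genes the values of a condition lay close together and far from those of the other. Mgarp, a mitochondrial protein, rose by 2.82 ± 0.17, Fam162a by 1.91 ± 0.063 and Higd1a, a survival protein of the inner membrane, by 1.45 ± 0.075, and all 3 held. Lonp1, a matrix protease, rose by 0.66 and was not called without normoxia replicate 2 (0.64). Ndufa4l2, a HIF-induced protein of the respiratory chain, rose by 1.26 and was not called without replicate 2 of normoxia (0.85) or of hypoxia (0.99). The pyruvate dehydrogenase subunits Pdha1 and Pdhb fell by 0.40 and 0.26, calls that no fit without a knockout array kept (-0.43 to -0.36 and -0.27 to -0.24). Of the 20 genes of this group 7 rose, 2 fell and 11 did not pass.

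Enzymes of pH control and collagen modification were raised in part. Car9, a carbonic anhydrase at the cell surface, read 3.96 and 4.02 in normoxia, below the filter level of 4.17, and 6.56 and 7.27 in hypoxia. The rise was 2.93 ± 0.18 (limma adjusted p = 1.35e-04). Its normoxic wild-type values of 3.78 and 4.14 lay below that level too, so Car9 was tested only through its hypoxic arrays. The size of its change and its p-value are therefore uncertain. The only other rise among 11 genes of pH control was Car8 (1.23), a carbonic anhydrase-related gene, which lay at 4.98 and 7.44 in normoxia and 6.42 and 8.46 in hypoxia, so that its arrays overlapped between sets, and which was called in none of the fits without a knockout array (1.09 to 1.37). Of 16 genes of collagen hydroxylases and lysyl oxidases 5 rose and 0 fell, with 3 to 4 rises without 1 knockout array. P4ha1 and P4ha2, catalytic subunits of collagen prolyl 4-hydroxylase, rose by 0.78 ± 0.074 and 1.40 ± 0.12, and Plod2, a lysyl hydroxylase, by 1.23 ± 0.14, and these held (limma adjusted p = 0.00158, 0.00125 and 0.00316). Plod1 rose by 1.28 and was not called without normoxia replicate 2 (1.21), and a second probe set of it gave 0.09. P4ha3 (0.48) was called in none of the 8 fits without 1 array (0.32 to 0.63). Lox, a lysyl oxidase, was at -0.03 and did not pass.

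Collagens and other matrix genes did not rise with the enzymes that modify collagen. Of 39 genes of fibrillar matrix 0 rose, 3 fell and 36 did not pass, with a median of -0.19, and 0 to 1 fell without 1 knockout array. Col8a1, Fbn2 and Ogn fell by 0.54, 0.54 and 0.61, none of them held (without 1 array -0.63 to -0.45, -0.58 to -0.49 and -0.77 to -0.44), and the other probe sets of Col8a1 and Fbn2 gave 0.01 to 0.06. Among 37 genes of contraction and TGF-beta signalling 1 rose and 5 fell, with 0 rises and 1 to 4 falls without 1 knockout array. Tgfb2, a ligand of the family, read 10.54 and 11.08 in normoxia and 9.58 and 9.87 in hypoxia, a fall of 1.09 ± 0.11 (limma adjusted p = 0.00187), which held and which 3 further probe sets shared (-0.995 to -0.76, all passed). Tgfb3 fell by 0.73 and was not called without either normoxic array (-0.61 and -0.84) or hypoxia replicate 2 (-0.56). The contractile genes Actg2, Tpm1 and Vcl fell by 0.52, 0.33 and 0.39 and Smtn rose by 0.57, and none of these held (without 1 array -0.63 to -0.41, -0.42 to -0.24, -0.54 to -0.23 and 0.42 to 0.71).

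Secreted factors rose in a minority. Of 23 angiogenic and secreted factor genes 7 rose, 0 fell and 16 did not pass, with a median of 0.31, and 2 to 3 rose without 1 knockout array. The hormone-like glycoprotein genes Stc1 and Stc2 stood out. Stc1 went from 6.79 and 6.49 to 8.85 and 8.93, by 2.25 ± 0.15 (limma adjusted p = 2.00e-04), although its second probe set gave 0.29 and did not pass. Stc2 went from 6.92 and 6.27 to 8.93 and 8.71, by 2.23 ± 0.24 (limma adjusted p = 0.00241), with 1.55 and 1.08 by 2 other probe sets. Vegfa, the main growth factor of blood vessels, read 8.07 and 9.5 in normoxia and 8.9 and 9.84 in hypoxia. Its arrays overlapped between the sets, and the rise of 0.59 ± 0.15 (limma adjusted p = 0.0418) was called in 3 of the 8 fits without 1 array (0.32 to 0.85). A second probe set of Vegfa rose by 0.67. Angptl4 (0.70), Vegfb (0.63), Apln (0.59) and Vegfc (0.42) rose without holding (without 1 array 0.57 to 0.83, 0.42 to 0.83, 0.40 to 0.77 and 0.28 to 0.56), and Adm, the gene of adrenomedullin, did not pass at 0.37.

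Other genes of large rise had no list of their own. Prelid2, a relative of lipid transfer proteins of mitochondria, rose by 2.31 ± 0.11 (limma adjusted p = 4.41e-05), with a second probe set at 0.17 that did not pass. Tmem45a, a membrane protein gene, went from 8.94 and 8.55 to 10.79 and 10.81, by 2.06, and Dynap from 5.22 and 5.21 to 7.45 and 6.8, by 1.91. 2610528A11Rik went from 3.97 and 3.48 to 5.05 and 6.41, by 2.01 ± 0.43 (limma adjusted p = 0.025), and was not called without normoxia replicate 1 (2.56) or replicate 2 (1.45) or hypoxia replicate 2 (1.32). Its normoxic values lie below the filter level of 4.17, so it was tested only through its hypoxic arrays and the size of its change is uncertain. The largest change that did not pass belonged to Cyp1a1, a target of the aryl hydrocarbon receptor, chosen here after its values were seen. It read 3.84 and 3.65 in normoxia and 7.92 and 4.51 in hypoxia, a change of 4.08 and 0.86 in the 2 sets (limma adjusted p = 0.0867). The normoxic values of Cyp1a1 also lie below the filter level of 4.17, so the size of its change is uncertain. In wild type the same gene changed by 3.36 and 0.28.

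Among histone demethylases of the JmjC family, which like the HIF hydroxylases need oxygen, 2 of 21 rose and 1 fell. Over all tested genes the shares were 4.98% higher and 5.13% lower. Kdm3a, which removes methyl groups from lysine 9 of histone H3, rose by 0.83 ± 0.081 (limma adjusted p = 0.00174) and held. Kdm4b rose by 0.54 and Kdm2b fell by 0.41, and no fit without a knockout array kept either (0.38 to 0.69 and -0.49 to -0.33).

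Several noncoding transcripts were lower. Of 18 nuclear and imprinted noncoding RNAs 0 rose, 7 fell and 11 did not pass, with a median of -0.34. Without 1 knockout array 1 to 6 of them fell. Meg3, a maternally expressed noncoding RNA, read 12.1 and 11.66 in normoxia and 10.94 and 10 in hypoxia, by -1.41 ± 0.19 (limma adjusted p = 0.00545), and was not called without normoxia replicate 1 (-1.39) or 2 (-1.43). Its 10 other probe sets were all negative, from -1.97 to -0.21, and 8 of them passed. Mirg, another noncoding RNA of the same imprinted cluster, fell by 0.87 and was not called without normoxia replicate 1 (-0.89) or 2 (-0.85) or hypoxia replicate 2 (-0.62). The large imprinted transcript Snhg14 went from 6.61 and 6.09 to 5.13 and 4.79, by -1.39 ± 0.14 (limma adjusted p = 0.00197), and held. Its 2 other probe sets gave -0.88 and -0.43, of which 1 passed.

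Neat1 and Malat1, long noncoding RNAs of nuclear bodies, were also lower. Neat1, the scaffold of paraspeckles, read 10.8 and 9.57 in normoxia and 9.35 and 7.33 in hypoxia. Within each set the hypoxic array was lower, and the fall of 1.85 ± 0.28 (limma adjusted p = 0.00919) was the largest of all, but it was not called without normoxia replicate 1 (-1.80) or 2 (-1.89). A second probe set of Neat1 gave -0.04. Malat1 read 13.99 and 13.42 in normoxia and 13.64 and 12.6 in hypoxia, so its arrays overlapped between sets, and its fall of 0.59 did not hold (up to -0.36). The snoRNA host genes Snhg3 and Snhg5 fell by 0.78 and 0.43 and did not hold (without 1 array -1.01 to -0.54 and -0.44 to -0.41). Of 40 splicing and RNA-binding genes 6 fell and 1 rose, against 5.13% lower and 4.98% higher over all tested genes, and without 1 knockout array 0 to 2 fell. Clk2, a kinase of splicing factors, fell by 0.80 ± 0.10 (limma adjusted p = 0.00472), and Srsf5, Hnrnph1, Ddx17 and Srsf10 by 0.51, 0.37, 0.34 and 0.32, none of which held (over these 5 genes, from -0.86 to -0.25 without 1 array). Taf15 fell by 1.23 with overlapping arrays (-1.58 to -0.89 without 1 array), and its second probe set gave 0.60. Rbm25 rose by 0.46 by its brightest probe set, but the mean of its 6 probe sets turned to -0.47 and did not pass. Its probe sets disagreed: others gave -1.37 and -1.205, which passed as falls. Of the 5 other probe sets 2 were positive, and neither of these passed.

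Other large falls included genes of varied function. Egr1, an immediate early transcription factor, read 11.38 and 10.98 in normoxia and 10.44 and 9.59 in hypoxia, by -1.17 ± 0.11 (limma adjusted p = 0.00158), and held. Ankrd28, a subunit of a protein phosphatase complex, went from 9.75 and 9.13 to 8.63 and 7.5, by -1.38 ± 0.13, and held, while its second probe set stood at -0.34 and did not pass. A probe set assigned to Rpl12 fell by 1.10 ± 0.11 and held. The list of cytosolic ribosomal protein genes does not include Rpl12, and 0 of its 29 tested genes changed, with a median of 0.03. Rpl12 is a gene with near-identical copies, so the assignment of this probe set is uncertain. Wdr5b fell by 1.43, H3f3b by 1.29, Srpx by 1.26, Ercc6, a DNA repair gene, by 1.20 and Pramel12 by 1.11, and none of these held, with -0.82 as the smallest change of the 5 without 1 array. The transcripts 4632427E13Rik and Gm19710 fell by 1.28 and 1.15 with overlapping arrays and did not hold (without 1 array -1.72 to -0.85 and -1.48 to -0.83). Wdr5b read 4.13 and 3.89 in hypoxia, below the filter level, so the size of its fall is uncertain. The same holds for Ercc6, which read 4.36 and 3.84 in hypoxia, the latter below that level. In hypoxic wild type Ercc6 read 3.87 and 3.99.

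Most genes of the respiratory chain did not pass, and some subunits were lower. Among 65 tested genes of respiration and of the TCA cycle, 56 did not pass, 8 fell and 1 rose. Over all tested genes 5.13% were lower and 4.98% higher. The median of the list was -0.02 and turned positive in 1 of the alternatives. Atp5a1, a subunit of ATP synthase, read 12.56 and 12.33 in normoxia and 11.99 and 11.65 in hypoxia, a fall of 0.63 ± 0.059 (limma adjusted p = 0.00158), and held. Other probe sets of Atp5a1 gave -0.385, which passed, and -0.015, which did not. Sdha of complex II fell by 0.46 and was not called without replicate 2 of normoxia (-0.34) or hypoxia (-0.36). Of its other probe sets, 1 gave 0.04 from 10.72 and 10.54 in normoxia, and the others -0.48 and 0.22, and none passed. Ndufs1 and Ndufb3 of complex I, Cyc1, Cox7c and the TCA cycle genes Idh3a and Idh2 fell by 0.50, 0.35, 0.38, 1.08, 0.35 and 0.47 and did not hold, with changes of -1.15 to -0.30 over these 6 genes without 1 array, and Ndufa1 rose by 0.26 (0.23 to 0.28). Without 1 knockout array 1 to 4 genes of this list fell. Among 40 genes of the mitochondrial ribosome and of import 1 fell.

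**Figure D4:**
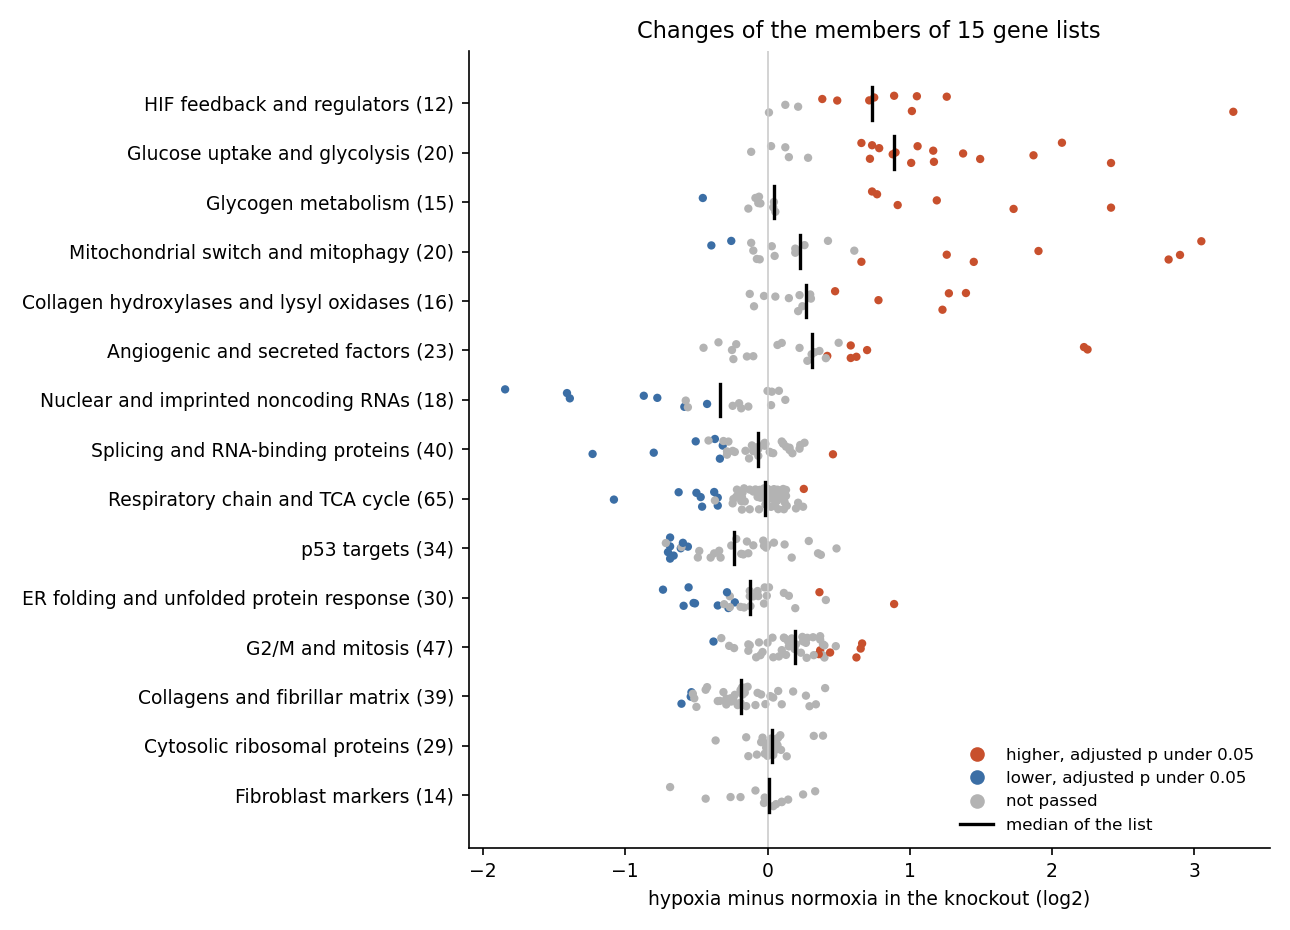
Each point is a tested member of a list, at its log2 change from normoxia to hypoxia in the knockout (horizontal axis), orange where it rose, blue where it fell and grey where it did not pass, with the black bar at the median and the number of members in brackets. Regulators of HIF and glycolysis lie to the right (medians 0.73 and 0.89), noncoding RNAs to the left (-0.34), and ribosomal proteins and fibroblast markers around 0.

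Genes of protein folding in the endoplasmic reticulum were lower in part. Of 30 tested genes 19 did not pass, 9 fell and 2 rose, and 1 to 4 fell when 1 knockout array was left out. Dnajb11, a chaperone partner of BiP, went from 11.12 and 10.83 to 10.35 and 10.13, by -0.74 ± 0.068 (limma adjusted p = 0.00154), and held. Calr, calreticulin, fell by 0.56 and was not called without normoxia replicate 1 (-0.48), while its 2 other probe sets gave -0.56 and -0.54, both passed. Manf (-0.59, from -0.72 to -0.46 without 1 array) and Pdia6 (-0.51, from -0.54 to -0.48) fell without holding, and the 2 rises were Ero1a and Dnajc3 (0.37, not held at 0.33 to 0.40). Among 31 ATF4 and amino acid genes 5 fell and 3 rose, and without 1 knockout array 0 to 2 fell and 1 to 3 rose. Ddit3, the stress factor CHOP, fell by 0.78 and was not called without replicate 2 of normoxia (-0.77) or hypoxia (-0.69), and its second probe set gave -1.35. Vldlr, a lipoprotein receptor also known as a HIF target, rose by 1.15 ± 0.089 (limma adjusted p = 6.22e-04), held, and rose by all 5 further probe sets (1.11 to 1.52).

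Targets of p53 that passed were all lower. Of 34 genes 8 fell, 0 rose and 26 did not pass, with a median of -0.24, and without 1 knockout array 1 to 8 fell. Plk2, a kinase, read 11.47 and 11.38 in normoxia and 10.86 and 10.62 in hypoxia, a fall of 0.69 ± 0.070 (limma adjusted p = 0.00197), and held, although a second probe set gave 0.06. Aen, a nuclease, fell by 0.69 and was not called without replicate 2 of normoxia (-0.55) or hypoxia (-0.51). Eda2r, Fas, Pmaip1, Btg2, Trp53inp1 and Zmat3 fell by 0.70, 0.69, 0.66, 0.61, 0.60 and 0.56 without holding, with changes of -0.95 to -0.43 over these 6 genes without 1 array. Cdkn1a, the cell cycle inhibitor, was at -0.03 and did not pass.

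Cell cycle genes moved little and unevenly between sets. Of 38 S phase genes 4 rose and 0 fell, and of 47 genes of G2/M and mitosis 6 rose and 1 fell. Without 1 knockout array 0 to 2 S phase genes and 0 to 6 mitotic genes rose and 0 fell. The median of the mitotic genes was 0.05 and 0.36 in the 2 sets. Mcm3, a subunit of the replicative helicase, rose by 0.73 and was not called without normoxia replicate 1 (0.71) or hypoxia replicate 2 (0.65). Plk1, which acts in mitosis as a kinase, rose by 0.67. Cdk1, the kinase that drives entry into mitosis, fell by 0.38, and neither held (without 1 array 0.47 to 0.86 and -0.42 to -0.34). Pola2 rose by 0.38 by its brightest probe set and stood at -0.06 by the mean of its probe sets.

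Some chaperones and both metallothioneins of the list rose. Of 20 heat shock and cytosolic chaperone genes 5 rose and 1 fell, with 2 to 3 rises without 1 knockout array. Hspa4l went from 8.47 and 7.85 to 9.81 and 8.88, by 1.19 ± 0.12 (limma adjusted p = 0.00197), and held, with 1.34 to 2.29 by 4 further probe sets. Hspa1b, an inducible HSP70 gene, rose by 0.62 and was not called without normoxia replicate 1 (0.58), Bag3 and Hsp90aa1 rose by 0.70 and 0.32 without holding (0.54 to 0.86 and 0.26 to 0.37), and Dnajb4 fell by 0.69 and held, while its other probe sets gave -0.73 and 0.14. Mt1, a metal-binding metallothionein, read 10.3 and 11.07 in normoxia and 11.84 and 12.75 in hypoxia, by 1.61 ± 0.092 (limma adjusted p = 1.06e-04), and held. Mt2 rose by 1.16 and was not called without replicate 2 of normoxia (0.88) or hypoxia (1.05). In the same list Txnrd1, Gstm1 and Taldo1, which are NRF2 targets, fell by 0.55, 0.50 and 0.30 without holding. Without 1 array the changes of these 3 genes lay between -0.69 and -0.25. Further probe sets of Txnrd1 (-0.17 and -0.13) and of Gstm1 (-0.375 to -0.09) were negative too but did not pass.

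Counts of the remaining lists stand beside 4.98% higher and 5.13% lower over all tested genes. Without 1 knockout array each of these lists had 0 to 2 rises and 0 to 2 falls. Of 19 clock genes 2 rose (Rora and Bhlhe40) and 3 fell, namely Nr1d2, Clock and Csnk1d by 0.59, 0.58 and 0.45. None of these falls held (-0.71 to -0.37 over the 3 genes without 1 array), and Csnk1d stood at 0.13 by the mean of its probe sets. Other probe sets of Csnk1d gave 0.935 and 0.635, which passed as rises. Of its 4 other probe sets 2 were negative, and neither of these passed. Cholesterol synthesis had 2 rises of 20, with medians of 0.45 and 0.01 in the 2 sets, and lipid storage 1 of 18. NF-kB targets had 2 rises and 1 fall of 26, interferon response genes 2 rises and 1 fall of 28, and ribosome biogenesis 2 rises and 1 fall of 40. Ifi204, an interferon-inducible gene, rose by 1.42 ± 0.22 (limma adjusted p = 0.00919) and was not called without replicate 2 of normoxia (1.16) or hypoxia (1.29). It read 3.84 and 3.71 in normoxia, below the filter level, and 4.97 and 5.42 in hypoxia. Its normoxic wild-type values of 4.13 and 4.13 lay below that level too. Ifi204 was thus tested only through its hypoxic arrays, and the size of its change and its p-value are uncertain.

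Markers of other cell types changed in 3 cases. None of 20 macrophage and leukocyte, 9 endothelial, 13 skeletal muscle and 2 erythroid markers tested passed, and of 12 epithelial, 11 neural and glial and 10 cartilage markers 1 each rose. Krt19, a keratin of simple epithelia, went from 8.46 and 7.81 to 9.83 and 9.66, by 1.61 ± 0.19 (limma adjusted p = 0.00404), and held. Epithelial markers as a list had a summed log2 level of 84.5 and 87.4 at the lowest and highest in normoxia and 89.0 and 90.4 in hypoxia. Sox9, a transcription factor of cartilage and other progenitors, rose by 0.81 and was not called without replicate 2 of normoxia (0.68) or hypoxia (0.73), and Stmn2 rose by 0.54 without holding (0.44 to 0.64). The RNA controls of the array also moved with oxygen. For Actb, the 3′ control probe set exceeded the 5′ one by a log2 difference of 0.53 and 0.31 in normoxia and 0.63 and 0.47 in hypoxia, and for Gapdh by 0.33 and 0.17 in normoxia and 0.37 and 0.44 in hypoxia. Their part in the changes above was not tested.

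The knockout response was set beside that of wild type, which uses no array of the knockout, although both were taken from 1 fit with a common spread. Of the genes called in the knockout, 552 of the 680 that rose (81.2%) also rose in wild type, where they made up 53.6% of 1029 rises. Of the 700 that fell, 611 (87.3%) also fell in wild type, which is 50.6% of 1208 falls. In wild type 16.4% of tested genes were called. None of the knockout's calls had the opposite call in wild type. Of the 15 largest rises in the knockout, 14 were smaller there than in wild type. Of the 20 glycolysis genes 16 had a lower signed change in the knockout, as had 5935 of all 13647 tested genes. By size without sign the split was closer to even, with 366 of the 680 rises, 385 of the 700 falls and 7585 of all 13647 tested genes smaller in the knockout. Of the 15 largest falls, 5 were smaller in the knockout. Levels in normoxia also differed for some of the largest rises. Bnip3 read 8.86 and 9.35 in normoxic wild type against 9.76 and 10.11 in the knockout. In hypoxia it read 12.96 and 13.14 against 12.87 and 13.1. Pdk1 read 7.27 and 6.94 against 7.9 and 7.83 in normoxia, and 11.02 and 10.79 against 10.78 and 10.75 in hypoxia. Stc1 was not higher in the normoxic knockout (6.99 and 6.5 against 6.79 and 6.49). These level differences were not tested.

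None of these differences passed the test of the difference itself. The interaction of genotype and oxygen was called for 0 of 13647 genes by limma, with 329 at an unadjusted p under 0.05, of which 173 were more positive and 156 more negative in the knockout, and for 0 genes under every alternative that holds both genotypes. The median standard error of the interaction was 0.18, and even differences of the size listed next did not pass with these arrays. Bnip3 came closest, with a rise of 3.05 in the knockout and 3.95 in wild type, a difference of -0.90 (limma adjusted p = 0.827). Pdk1 rose by 2.90 and 3.80 (difference -0.90), and Wsb1, a substrate receptor of a ubiquitin ligase, changed by -0.18 and 0.33 (limma adjusted p = 1 for both). In the other direction Usp18, an interferon-stimulated gene, changed by 0.15 in the knockout and -1.21 in wild type. Bmp6 changed by 0.60 and -0.27 and Nsg1 by 0.09 and -0.38, and none of these differences passed. Usp18 read 4.03 and 3.77 in the normoxic knockout, 4.15 and 3.95 in the hypoxic knockout and 4.05 and 3.48 in hypoxic wild type. All of these lie below the filter level of 4.17. Usp18 was thus tested only through its normoxic wild-type arrays (5.44 and 4.5), and the size of its difference is uncertain. The interferon response list had a median of 0.0 in the knockout, with a sign that turned under rescaling of the arrays, and -0.43 in wild type. Macrophage and leukocyte markers stood at -0.05 and -0.40 beside it, and the difference between genotypes of these lists was not tested.

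**Figure D5:**
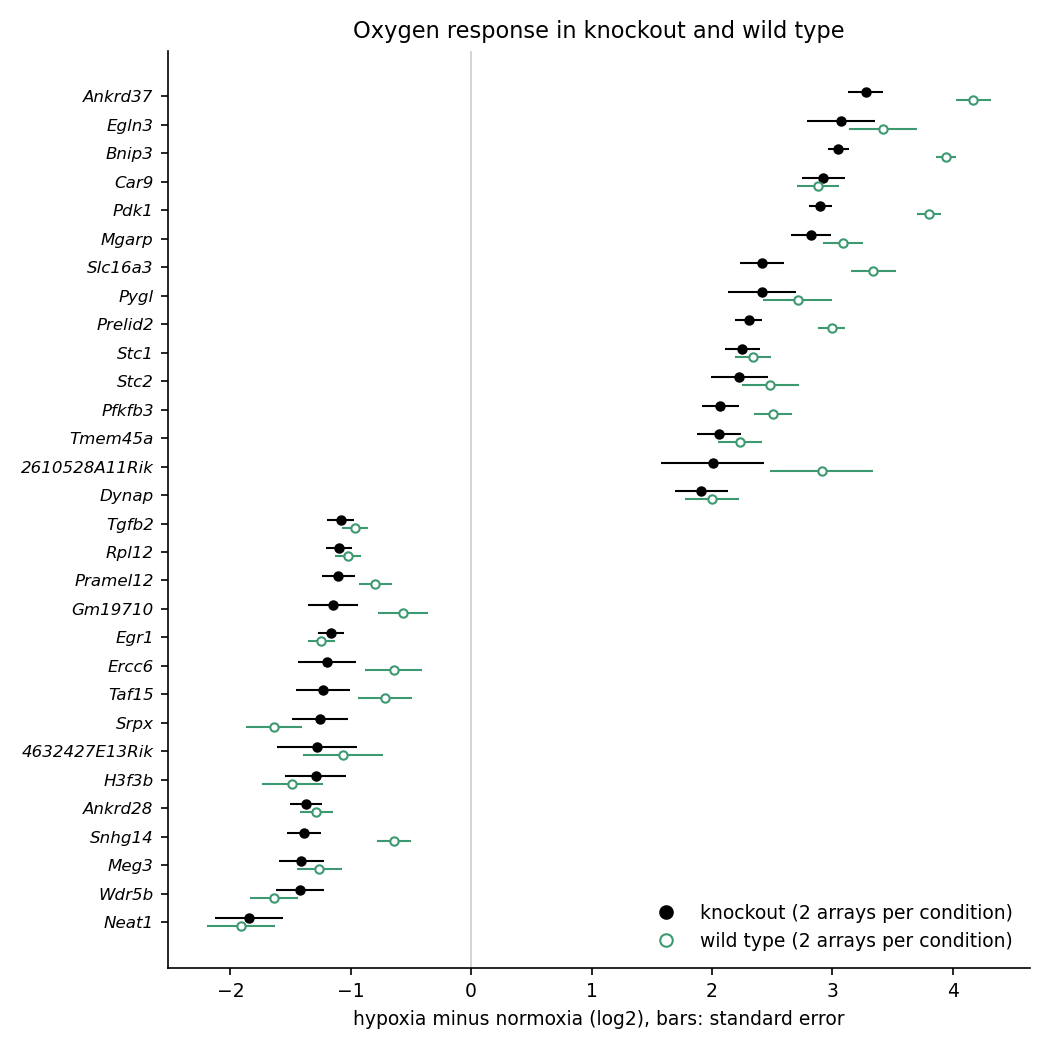
Log2 change from normoxia to hypoxia (horizontal axis) with its standard error for the 15 largest rises and 15 largest falls of the knockout, filled black for the knockout and open green for wild type, 2 arrays per condition in each. Rises of Ankrd37 (3.28 against 4.17), Bnip3 (3.05 against 3.95) and Pdk1 (2.90 against 3.80) are lower in the knockout, and Snhg14 fell further there (-1.39 against -0.64), but none of these differences passed the interaction test. Changes are drawn, not the levels in normoxia or hypoxia.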

How the data were processed

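RNA of 8 fibroblast samples was measured on 1-colour Affymetrix arrays, 1 array per sample, from 5 ug of total RNA per the labels' protocols. The values deposited by the authors are log2 values per probe set. Per the submitters' processing notes RMA was used, without a stated version. It corrects background, brings arrays to a common distribution and summarizes probes, and no further normalization was applied. No source used here says whether the 8 arrays went through this step together. Medians per array ranged from 5.01 to 5.12 (log2). The number of arrays limits the precision.

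Of 45101 probe sets, 34945 other than the 64 controls had exactly 1 gene symbol in the platform annotation, 932 had several and were not used, and 9160 are unnamed here. Entrez identifiers of 34741 were found in a RefSeq table of assembly GRCm38.p6. The probe set with the highest mean stood for each gene, and genes under the 25th percentile of means were left out. With R 4.3.3 and limma 3.58.1, a mean per group and the set were fitted to all 8 arrays, followed by eBayes with a trend (3 residual and 5.22 prior degrees of freedom). "Rose" and "fell" mean a two-sided Benjamini-Hochberg adjusted p under 0.05 over all tested genes. All adjusted p-values in the text are from limma. The fit was tested on simulated data. Samples of a set deviate together: the difference between sets correlated between groups at 0.710 to 0.850 across genes, so the arrays are paired by set, as the titles mark it.

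Genes named are the HIF hydroxylases and subunits, the 15 largest rises and falls, at most 4 genes of smallest p per list and 6 genes of smallest interaction p. Further list members named were chosen after their values were seen. Lists and members were chosen with earlier results of these data known, so lists are described by counts and medians without a test. Promoters come from a RefSeq table and were searched for 2 motifs on both strands. Figures were drawn with matplotlib. Alternatives are given in the closing section.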

Additional observations from a re-analysis of the deposited data

How the results depend on the processing

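The direction of all called genes held in every fit without 1 array, but the number of calls rested on the fit. Against 1380 calls (680 higher, 700 lower) with the set as a block, 12 genes passed with no replicate block (12 and 0), 517 with the set as a random replicate block (267 and 250), 53 with the knockout arrays alone and the block (47 and 6), where 1 residual degree of freedom is left, and 603 without the mean-variance trend (337 and 266). Of these, 12, 516, 50 and 596 were among the 1380. Testing all probe sets separately gave 2251 (1107 and 1144), and the mean of the probe sets of a gene gave 447 falls. Leaving out 1 array gave 121 to 1335 calls, 88 to 637 higher and 33 to 698 lower, where the lone array of a group was taken to vary like the others. The lowest counts were without knockout normoxia replicate 2 (121), hypoxia replicate 2 (131) and normoxia replicate 1 (147), and 525 passed without hypoxia replicate 1. The genotype by oxygen interaction stayed at 0 under each setting that holds both genotypes. Of the named genes, Rbm25, Pola2 and Csnk1d reversed under the mean of the probe sets, to -0.4733, -0.0583 and 0.133. Centring or quantile normalization again turned the sign of the medians of the HIF hydroxylase and subunit list and of the interferon list, both near 0, and of no other list. Motif shares in the 200 bases nearest the start were lower (54.1% of entries of genes that rose, 48.5% of those that did not pass). The causes of these dependencies were not tested.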
